A study of Mus musculus with 3 samples.

Results

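The Fc receptor genes described here are Fcgr1, Fcgr2b, Fcgr3, Fcgr4, Fcer1g, Fcer1a, Fcgrt and Fcer2a, 8 of the 19087 mouse genes that the arrays measured. They were chosen by name, and each is given as the mean over its probes. In all, 22 probes carried these symbols. Fcgr2b had 12 of them, Fcgr1, Fcgr3 and Fcer1g had 2 each, and Fcgr4, Fcer1a, Fcer2a and Fcgrt had 1 each.

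RNA was taken from untreated wild-type C57BL/6N mice of both sexes, 6 to 9 weeks old. Peripheral blood monocytes (PBMo) were sorted from blood as CD11b- and CD115-positive cells with low side scatter, and lung macrophages (Mϕ) and lung dendritic cells (DC) from perfused, collagenase-digested lungs as CD11c-positive cells of high and of low autofluorescence. The sample labels call the macrophages alveolar, but they came from whole lung homogenate. All 3 cell types were sorted from the same 32 mice, RNA of 4 mice was pooled to give 8 pools of each cell type, and each pair of cell types was hybridized on 4 of 12 two-colour arrays, labelled in both dye orientations. Before antibody staining the cells were exposed to an excess of non-specific immunoglobulin to block their Fc receptors, and whether this changed the transcripts was not tested.

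For each comparison the deposit holds 1 log2 ratio per spot, so that a value of 1 stands for a 2-fold higher signal in the cell type named first. The comparisons are written Mϕ/PBMo, DC/PBMo and Mϕ/DC. In each spot Mϕ/PBMo minus DC/PBMo equals Mϕ/DC, with a largest deviation of 1.07e-14. Each comparison thus has a single value per spot, without replicates, and no p-value or error across pools can be given. Genes past 2-fold were therefore counted as higher or lower by size alone, and the only spread available was that between probes of the same gene, with a median SD of 0.13 in Mϕ/PBMo, 0.12 in DC/PBMo and 0.13 in Mϕ/DC over 8343 genes with at least 2 probes. This spread measures spots and not mice. The ratios carry no level, so genes were not compared with each other in abundance, and in pools of sorted cells a lower share of expressing cells and less transcript per cell cannot be told apart.

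Gene names rest on a recovered order of the spots, because taking row numbers as the array's spot numbers placed probes of 1 transcript at unlike values, with a share of 0.389 of the variance between transcripts. The order was found from the values themselves. In 1 of 32 possible arrangements a share of 0.907 of the variance lay between the 5899 transcripts with more than 1 probe, against 0.413 in the next best. On 2950 transcripts left out of the choice the share was 0.916. The populations were checked by their markers. Itgax, the CD11c chain used for the lung sorts, had log2 ratios of 1.71 in Mϕ/PBMo and 1.47 in DC/PBMo, and Itgam, the CD11b chain used for PBMo, had -2.46 and -0.67. All 12 alveolar macrophage markers were more than 2-fold higher in Mϕ/PBMo, and of 16 markers of dendritic cells 9 were past 2-fold in DC/PBMo, all of them higher. Adgre1, which encodes F4/80, had 0.39 and 0.10, and Csf1r, which encodes CD115, was not analysed here. The same 12 alveolar macrophage markers were above 0 in DC/PBMo as well, 9 of them past 2-fold.

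Fc receptors bind the constant part of antibodies and so link antibody recognition to the behaviour of the cell. Activating receptors for IgG pair with the common γ chain, which carries an ITAM, a tyrosine motif that recruits the kinase Syk and starts phagocytosis and cytokine release. The inhibitory receptor FcγRIIb carries an ITIM instead and recruits the phosphatase SHIP1, and the balance of both kinds sets the threshold for a response to immune complexes. The neonatal receptor FcRn acts inside the cell, where it saves IgG from degradation in lysosomes and carries it across cells.

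The Fc receptors did not move as a block. Fcgrt was higher in both lung populations than in PBMo, Fcgr1 was lower in both, Fcer2a was lower in lung Mϕ, and Fcgr4 was lower in Mϕ/DC. In Mϕ/PBMo 1 of the 8 genes was more than 2-fold higher, where 5.47% of all genes were, and 2 were lower, where 4.49% of all genes were. In DC/PBMo 1 was higher and 1 lower, against 4.02% and 1.09% of all genes. In Mϕ/DC none was higher and 1 was lower, against 2.74% and 4.52% of all genes. Fcgr3, Fcgr2b, Fcer1g and Fcer1a stayed within 2-fold in each comparison. The median log2 ratio of the 8 genes was -0.43 in Mϕ/PBMo, -0.19 in DC/PBMo and -0.02 in Mϕ/DC, against 0.0022, 0.0027 and 0.0026 over all genes. Without regard to sign the medians were 0.71, 0.51 and 0.32, against 0.13, 0.12 and 0.14 over all genes. With 8 genes, a single gene is already a larger share than any of these backgrounds.

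**Figure D1:**
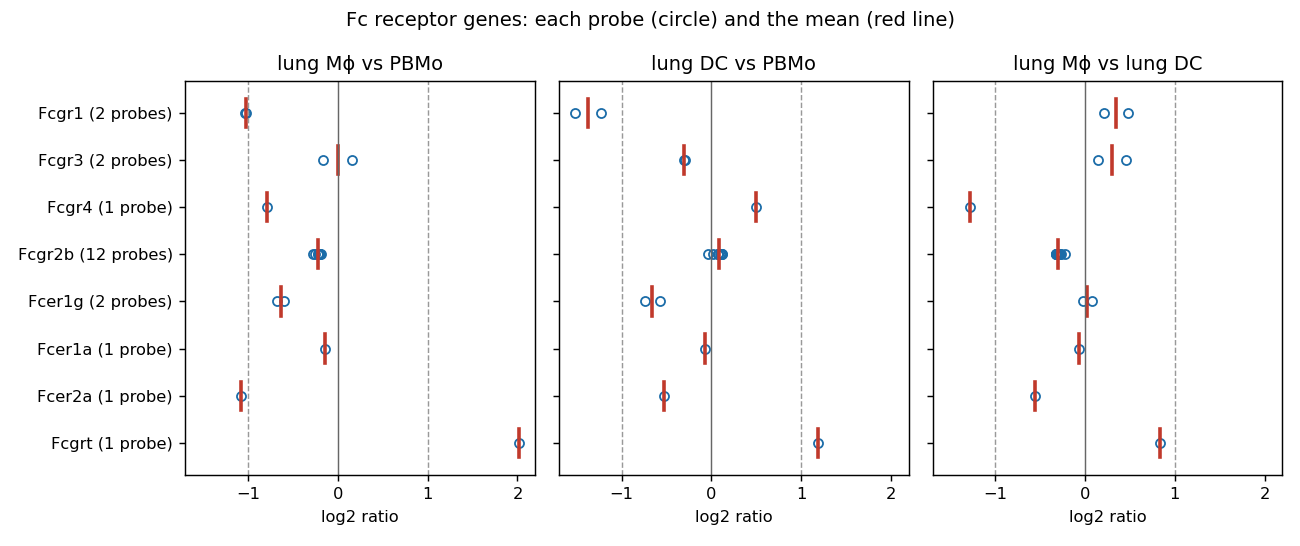
Log2 ratio (horizontal axis) of each probe (circle) of the 8 Fc receptor genes in the 3 comparisons, with the mean of each gene as a red line and dashed lines at 2-fold. Fcgrt lies at 2.02 and 1.19 to the right of both comparisons with PBMo, Fcgr1 lies left of -1 in both, and the 12 Fcgr2b probes lie close together.

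The largest ratio belonged to Fcgrt, the heavy chain of FcRn. Its probe had a log2 ratio of 2.02 in Mϕ/PBMo, a 4.06-fold higher signal, and ranked 312th from the top of 19087 genes. In lung DC the ratio to PBMo was 1.19, or 2.28-fold, and in Mϕ/DC it was 0.83, or 1.78-fold. The order was thus lung Mϕ above lung DC above PBMo, and its step from lung DC to lung Mϕ was below 2-fold. The light chain of FcRn is β2-microglobulin, encoded by B2m, which also pairs with class I heavy chains. B2m went the other way in lung Mϕ, with a mean of -1.19 over 12 probes in Mϕ/PBMo and -1.03 in Mϕ/DC. Its probes ranged from -1.33 to -0.22 in the first of these. In DC/PBMo its mean was -0.16, with probes from -0.37 to 0.73, so that no direction could be given. The log2 ratio of the heavy chain exceeded that of the light chain by 3.21 in lung Mϕ and by 1.34 in lung DC, both against PBMo, which shows unequal change and no level of either chain. The alveolar macrophage markers moved with Fcgrt in both lung populations. They ranged from 1.42 to 7.22 in Mϕ/PBMo and from 0.41 to 4.67 in DC/PBMo, and their part in the ratios of Fcgrt was not tested. Fcgrt had a single probe. Among 553 genes with exactly 2 probes of which the first was past 2-fold in Mϕ/PBMo, the second was past 2-fold the same way in 290, or 52.4%. In DC/PBMo this held for 109 of 248 such genes, or 44.0%.

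The sequence just upstream of Fcgrt is shown because this gene had the largest ratio. It is the RefSeq window of 300 bases on GRCm38.p6, from 250 bases before to 50 after the start of the gene, written 5′ to 3′ on the strand of the gene. No GAGGAA, the core that the myeloid factor PU.1 binds, was found in it on either strand, which says only that these letters are not in this window.
Fcgrt, chr7:45103773-45104072, minus strand: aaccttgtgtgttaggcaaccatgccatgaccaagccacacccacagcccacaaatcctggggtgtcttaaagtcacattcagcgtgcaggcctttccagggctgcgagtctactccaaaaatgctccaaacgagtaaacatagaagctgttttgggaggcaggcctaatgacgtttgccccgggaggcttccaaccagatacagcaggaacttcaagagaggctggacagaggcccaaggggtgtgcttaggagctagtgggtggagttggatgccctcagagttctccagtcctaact

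The activating IgG receptors had 3 different patterns. Fcgr1 encodes FcγRI (CD64), the high-affinity receptor for IgG, which is also used to tell macrophages and monocyte-derived cells from dendritic cells. Its probes, matched to different accessions, had log2 ratios of -1.02 and -1.04 in Mϕ/PBMo and of -1.23 and -1.52 in DC/PBMo. The means were -1.03, a 2.04-fold lower signal, and -1.37, or 2.59-fold. Fcgr1 lay 90th from the lowest of 19087 genes in DC/PBMo and 835th from the lowest in Mϕ/PBMo, where it was only just past 2-fold. In Mϕ/DC its probes had 0.21 and 0.48, so PBMo were highest and the lung populations lay within 2-fold of each other. Markers of Gr-1 high monocytes moved the same way against PBMo, with 6 of 7 lower in Mϕ/PBMo and 6 of 7 lower in DC/PBMo, at ranges of -6.59 to -0.56 and -5.70 to -0.75. In Mϕ/DC, where Fcgr1 had a mean of 0.35, 4 of these 7 were lower and 1 was higher. All 9 markers of Gr-1 low monocytes were below 0 against PBMo as well, past 2-fold in Mϕ/PBMo but not in DC/PBMo. The complement genes C1qa, C1qb and C1qc, markers of interstitial macrophages and monocyte-derived cells, went the other way in lung DC, at 3.97, 3.70 and 4.07 against PBMo. Of the 10 measured genes of that list 6 were higher and none was lower in DC/PBMo, and 4 were higher and 2 lower in Mϕ/PBMo. The part of other cells in the ratio of Fcgr1 was not tested.

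Fcgr4 encodes FcγRIV, a receptor of the mouse for IgG2a and IgG2b that the Gr-1 low subset of blood monocytes carries. Its single probe had -0.79 in Mϕ/PBMo and 0.50 in DC/PBMo, each within 2-fold. In Mϕ/DC the log2 ratio was -1.28, a 2.43-fold lower signal in lung Mϕ. Lung DC were thus highest and lung Mϕ lowest, with PBMo within 2-fold of either. All 9 markers of Gr-1 low monocytes were more than 2-fold lower in Mϕ/PBMo, from -4.21 to -1.58, and none was past 2-fold in lung DC, from -0.67 to -0.05. In Mϕ/DC, where Fcgr4 was past 2-fold, all 9 of these markers were lower as well, from -3.91 to -1.20, as were 10 of 11 NK cell markers and 14 of 16 dendritic cell markers. The part of these cells in the ratios of Fcgr4 was not tested.

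Fcgr3 encodes FcγRIII (CD16), the low-affinity activating receptor of macrophages, neutrophils and NK cells. Its probes had 0.16 and -0.16 in Mϕ/PBMo, so that no direction could be given. In DC/PBMo they had -0.30 and -0.31, and in Mϕ/DC 0.46 and 0.15. The span over the 3 cell types was 0.30 on the log2 scale, or 1.23-fold. NK cells also transcribe this gene, and their markers differed far more between the populations, with 10 of 11 lower in Mϕ/DC, from -4.58 to -0.99, and 5 of 11 higher in DC/PBMo. The ratios of Fcgr3 had the opposite sign in these comparisons, and the part of NK cells in them was not tested.

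The promoter sequences of the activating IgG receptors each hold the PU.1 core near the start of the gene. They are shown because these genes had different patterns of ratios. GAGGAA was searched on both strands of the RefSeq windows, and a match on the strand opposite to the gene appears as TTCCTC on the strand of the gene. The first base of the match lay 55 bases before the start in Fcgr1, 22 in Fcgr4, and 15 or 6 in Fcgr3, which has 2 annotated starts. The match is in capitals, with 14 bases on each side, on the strand of the gene and GRCm38.p6.
Fcgr1, chr3:96294005-96294038, minus strand: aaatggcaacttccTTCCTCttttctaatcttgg
Fcgr3, chr1:171059390-171059423, minus strand: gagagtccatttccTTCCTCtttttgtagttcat
Fcgr4, chr1:171018890-171018923, plus strand: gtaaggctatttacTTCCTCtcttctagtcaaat

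Among the other members only Fcer1a had a match, 216 bases before the start, and Fcgr2b, Fcer1g, Fcer2a and Fcgrt had none. Over all 32851 windows of this length 28.3% held a match, against 5 of 11 member windows, of which 2 hold the same Fcgr3 stretch, and a match is a description of the sequence and not a bound site. Fcgr3, with a match, spanned 0.30 on the log2 scale over the cell types, and Fcgr2b, without one, also spanned 0.30. Fcgrt, without a match, spanned 2.02. Whether the motif bears on the ratios was not tested. The window of Fcgr2b is given for comparison, since it lies beside Fcgr4.
Fcgr2b, chr1:170976022-170976321, minus strand: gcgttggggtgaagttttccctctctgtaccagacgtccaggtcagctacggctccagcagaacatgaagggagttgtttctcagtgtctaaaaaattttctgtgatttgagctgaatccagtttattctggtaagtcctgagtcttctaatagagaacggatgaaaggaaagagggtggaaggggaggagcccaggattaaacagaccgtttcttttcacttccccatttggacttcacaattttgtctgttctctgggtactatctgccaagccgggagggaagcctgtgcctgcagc

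The inhibitory receptor Fcgr2b hardly differed between the 3 cell types. Its 12 probes, all of the same transcript, had a mean log2 ratio of -0.22 in Mϕ/PBMo with an SD of 0.02 between probes, of 0.08 ± 0.05 in DC/PBMo and of -0.30 ± 0.03 in Mϕ/DC. All 12 were below 0 in the first comparison, at -0.28 to -0.19, and in the third, at -0.33 to -0.22, while in the second they ranged from -0.04 to 0.11. The differences from 0 are larger than the spread of the spots in lung Mϕ against both other populations, but whether they exceed the spread of the mice could not be tested. Set against Fcgr2b on the same arrays, Fcgr1 was lower by 0.81 in Mϕ/PBMo and by 1.45 in DC/PBMo on the log2 scale. Fcgr4 lay at -0.57 relative to Fcgr2b in Mϕ/PBMo and at 0.42 in DC/PBMo. Fcgr3 lay at 0.22 and -0.38, and Fcer1g at -0.42 and -0.74, so no activating receptor gained more than 0.42 over the inhibitory one against PBMo. In Mϕ/DC Fcgr1 and Fcgr3 exceeded Fcgr2b by 0.64 and 0.60, and Fcgr4 lay at -0.98. The extracellular parts of FcγRIIb and FcγRIII are nearly alike, and whether a probe reads both transcripts was not tested.

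The common γ chain Fcer1g, without which FcγRI, FcγRIII and FcγRIV are not stably held at the cell surface in mice, was lower in both lung populations but within 2-fold. Its probes had -0.60 and -0.67 in lung Mϕ and -0.57 and -0.74 in lung DC, all against PBMo. The means were -0.64, or 1.55-fold lower, and -0.66, or 1.58-fold lower. In Mϕ/DC the mean was 0.02, less than the SD of 0.07 between its probes. PBMo were thus highest, and the lung populations could not be ordered.

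**Figure D2:**
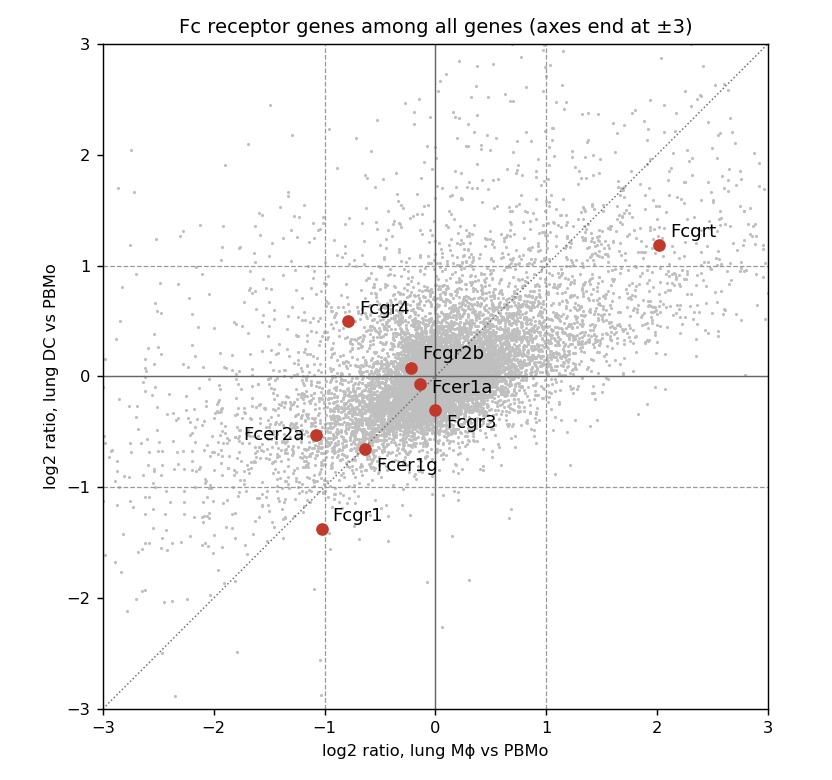
Log2 ratio of lung Mϕ to PBMo (horizontal axis) against that of lung DC to PBMo (vertical axis) for all genes (grey) and the 8 Fc receptor genes (red), with dashed lines at 2-fold and a dotted line where both are equal; 235 of the grey genes lie outside the axes. Fcgrt lies in the upper right, Fcgr1 in the lower left, Fcer1g near the line of equal ratios, and Fcgr4 farthest into the upper left of the 8.

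The IgE receptor genes were within 2-fold, except for Fcer2a in Mϕ/PBMo. Fcer1a, the α chain of the high-affinity receptor of mast cells and basophils, had log2 ratios of -0.14, -0.07 and -0.07 in Mϕ/PBMo, DC/PBMo and Mϕ/DC. Its β chain Ms4a2 had -0.10, -0.08 and -0.02, and Cpa3, a protease of mast cells and basophils, had -0.27, -0.25 and -0.02. Of 10 markers of these cells, Hdc and Cma1 were lower in Mϕ/PBMo, at -2.09 and -1.56, and Kit was higher in DC/PBMo, at 2.09, while the other markers were within 2-fold in both. A ratio near 0 is also what a transcript without signal in any population would give, and the signal over background was not analysed here. Fcer2a encodes CD23, the low-affinity IgE receptor, a C-type lectin best known from B cells. It had -1.08 in Mϕ/PBMo, a 2.11-fold lower signal, -0.53 in DC/PBMo and -0.55 in Mϕ/DC, so that lung DC lay between the others, within 2-fold of each. Adam10, the protease that sheds CD23, had 0.16, -0.13 and 0.29. Of 11 B cell markers 3 were also lower in Mϕ/PBMo, Cd79b at -3.71, Ighm at -3.35 and Ms4a1 at -2.19, and Cd22 was higher at 1.03. In DC/PBMo Cd79b, Ighm and Ms4a1 had -0.82, -0.45 and -0.76, and Blnk, the only B cell marker past 2-fold there, was higher at 3.23. In Mϕ/PBMo 10 of the 11 B cell markers were below 0, among them Bank1 at -0.67, Cd79a at -0.27 and Pax5 at -0.11. The part of B cells in the ratio of Fcer2a was not tested, and its call rests on a single probe.

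Further receptors of immunoglobulin and Fc receptor-like genes were compared as a list. Of 10 such genes measured, 1 was more than 2-fold higher and 2 were lower in Mϕ/PBMo, against 5.47% and 4.49% of all genes. In DC/PBMo 2 were higher and 1 was lower, against 4.02% and 1.09% of all genes. In Mϕ/DC none was higher and 2 were lower, against 2.74% and 4.52% of all genes. Fcmr, the receptor for IgM, had -2.62 in Mϕ/PBMo and -1.24 in DC/PBMo. Fcrl1, a surface protein of B cells, had -1.24 and -0.34. Fcrla, an intracellular relative of the Fc receptors, had -0.78 in Mϕ/PBMo and 1.43 in DC/PBMo, and -2.21 between the lung populations. Fcrls, in mice known from microglia, was higher in both, at 1.02 in lung Mϕ and 1.78 in lung DC. Its probes in Mϕ/PBMo had 0.97 and 1.08, on either side of the threshold. Trim21, the cytosolic antibody receptor, had -0.93 and -0.81. Pigr, Fcamr, Fcrl5, Fcrl6 and Ms4a2 lay between -0.10 and 0.08 in all 3 comparisons.

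Receptors other than Fc receptors that signal through the γ chain had varied ratios. Of 8 measured, 2 were more than 2-fold higher and 1 was lower in Mϕ/PBMo, against 5.47% and 4.49% of all genes, with a median of 0.40. In DC/PBMo 1 was higher and 1 lower, against 4.02% and 1.09% of all genes. In Mϕ/DC 2 were higher and 1 lower, against 2.74% and 4.52% of all genes. Clec4n, which encodes Dectin-2, a receptor for fungal mannans, had the largest ratios, with 4.41 in Mϕ/PBMo and 2.55 in DC/PBMo and 1.85 in Mϕ/DC. Gp6, the collagen receptor of platelets, was within 2-fold, with -0.72, -0.61 and -0.11 in Mϕ/PBMo, DC/PBMo and Mϕ/DC. Of the 8 genes 5 were above 0 and 3 below 0 in Mϕ/PBMo, and the same numbers held in DC/PBMo. Lilra5, an immunoglobulin-like receptor of myeloid cells, had 1.56 in lung Mϕ. Ncr1, a receptor of NK cells that is also on the list of NK cell markers, had -1.57 in lung Mϕ and 0.49 in lung DC against PBMo, and the other NK cell markers had the same signs. Pira1, an activating paired immunoglobulin-like receptor, had 0.17 in Mϕ/PBMo and -1.03 in DC/PBMo, and 1.20 in Mϕ/DC. It belongs to a family of near-identical genes, so that its probe may read several of them.

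Downstream of the receptors, signalling genes were more often lower than higher in lung Mϕ. Of 24 measured genes of ITAM adaptors, kinases and activating signalling, 7 were more than 2-fold lower in Mϕ/PBMo and none was higher, with a median of -0.48, where 4.49% of all genes were lower and 5.47% higher. In DC/PBMo the median was -0.20, with 2 genes higher and 0 lower, against 4.02% and 1.09% of all genes. In Mϕ/DC 7 were lower in lung Mϕ and none was higher, against 4.52% and 2.74% of all genes. Lyn, the kinase that phosphorylates the ITAM, was not analysed here. Syk, the kinase that binds it, differed little, with -0.02, -0.15 and 0.13. Tyrobp, the ITAM adaptor DAP12, had -0.29, -0.79 and 0.49. The lowest ratios of lung Mϕ to PBMo were those of Lat2, a linker protein of myeloid and B cells, at -2.40, with probes at -2.93 and -1.87, and of the kinase Prkcd at -1.87. The phosphoinositide kinase subunit Pik3cd had -1.47, the GTPase Rac2 had -1.20 and the phospholipase Plcg2 had -1.17 in the same comparison. Zap70 and Lat, which serve the T cell receptor and NK cells, were the genes higher in DC/PBMo, at 1.39 and 1.36. In Mϕ/DC they had -2.49 and -1.13, Lat2 had -2.24, and Pik3r1 and Fyn had -1.09 and -1.08. NK cell markers moved with Zap70, being lower in Mϕ/PBMo for 9 of 11 genes, and their part was not tested.

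Genes of inhibitory signalling had a median of -0.63 in Mϕ/PBMo, -0.15 in DC/PBMo and -0.40 in Mϕ/DC. Of 12 measured, 1 was more than 2-fold higher and 2 were lower in Mϕ/PBMo, against 5.47% and 4.49% of all genes. In DC/PBMo 1 was higher and none was lower, against 4.02% and 1.09% of all genes. In Mϕ/DC none was higher and 1 was lower, against 2.74% and 4.52% of all genes. Inpp5d, which encodes SHIP1, the phosphatase that FcγRIIb recruits, had -0.71, 0.09 and -0.81, and Ptpn6, the phosphatase SHP-1, had -0.66, -0.40 and -0.26. The Ptpn6 probes ranged from -1.24 to -0.08 in Mϕ/PBMo and from -0.74 to -0.04 in DC/PBMo. The adaptor Dok1 had -1.41 in Mϕ/PBMo and -1.16 against lung DC. Csk, the kinase that restrains Src kinases, had -1.25 and Ubash3b, a phosphatase that acts on Syk, had 1.25 in Mϕ/PBMo. The adaptor Dok2 had 1.11 in DC/PBMo.

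**Figure D3:**
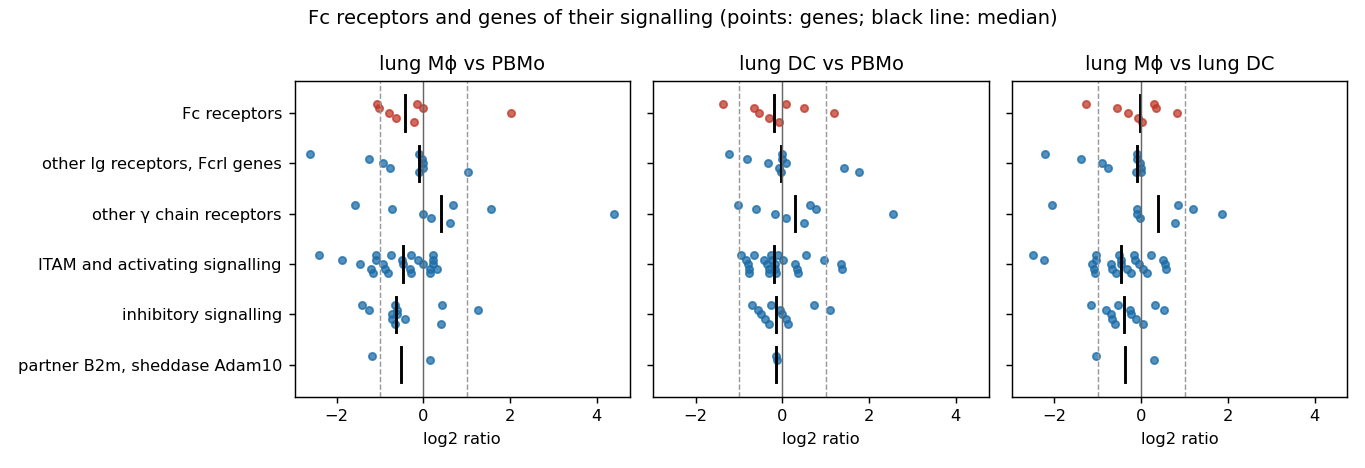
Log2 ratios (horizontal axis) of the 8 Fc receptor genes (red) and of genes of their pathway (blue) in the 3 comparisons, each point a gene, black lines the medians and dashed lines 2-fold. In Mϕ/PBMo the activating signalling genes reach from -2.40 to 0.32, with 7 of 24 past 2-fold and all of these lower.

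In Mϕ/PBMo the Fc receptor genes ranged from -1.08 to 2.02, while markers of Gr-1 high monocytes reached -6.59 and those of alveolar macrophages 7.22. In DC/PBMo they ranged from -1.37 to 1.19, and in Mϕ/DC from -1.28 to 0.83.

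**Figure D4:**
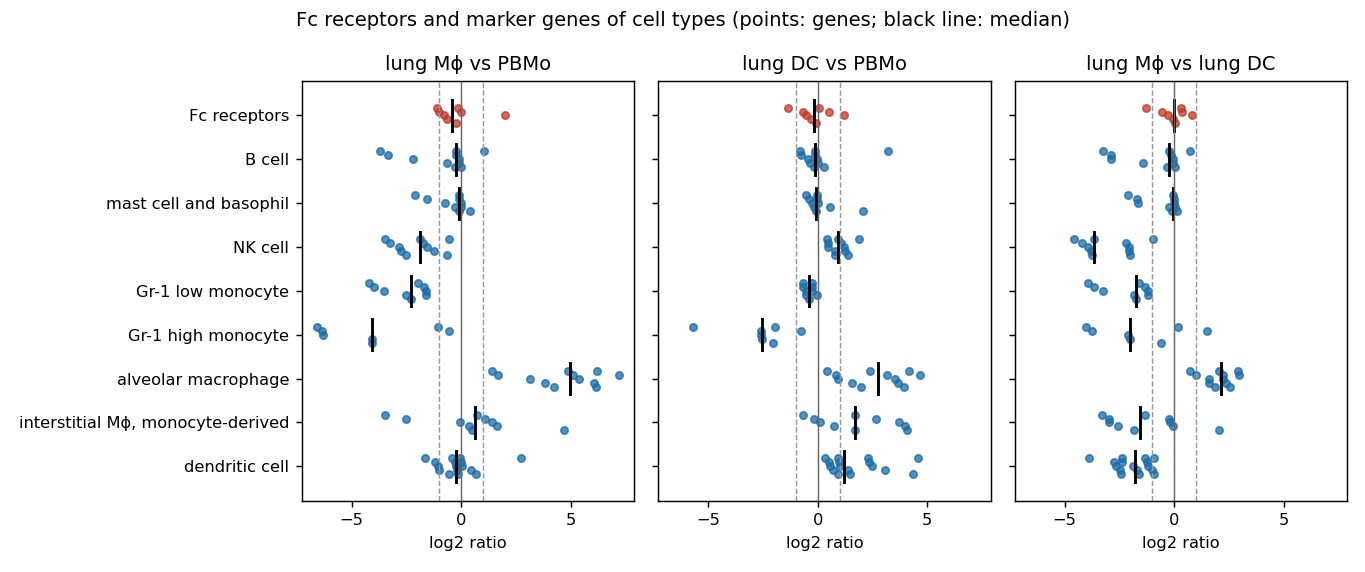
Log2 ratios (horizontal axis) of the 8 Fc receptor genes (red) and of marker genes of 8 kinds of cells (blue) in the 3 comparisons, each point a gene, black lines the medians and dashed lines 2-fold. The Fc receptors lie between -1.37 and 2.02, inside the span of the monocyte and macrophage markers.

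The genes most like each member past 2-fold were sought among 8343 genes with at least 2 probes, by the Euclidean distance over the 3 log2 ratios. Nearest to Fcgrt was Gm8096, with ratios of 2.04, 1.25 and 0.79 and a distance of 0.07, followed by Ppfibp1 at 0.12 and Dtx4 at 0.16. Nearest to Fcgr1 was Klra2, a lectin-like receptor of the Ly49 family, with -0.96, -1.41 and 0.45 and a distance of 0.13, and the next genes, Fam241a and Hacd4, were at 0.33. Fcgr4 had Pecam1, an adhesion molecule of endothelium, platelets and leukocytes, at a distance of 0.05 with -0.79, 0.46 and -1.25 over 11 probes, then Ece1 at 0.06 and Jak2, a kinase of cytokine receptors, at 0.08. Fcer2a had Fam32a at 0.03 and Ralgps2 and Trps1 at 0.05. With only 3 ratios for each gene, of which the third follows from the others, such nearness is a description.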

How the data were processed

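RNA was amplified and hybridized to Agilent mouse whole genome slides. According to the authors' methods, spots were weighted, corrected for local background with an offset, LOESS-normalized and averaged, and contrasts were drawn from an overall limma model, whose version is not given in the sources used here. The deposited log2 ratios of the 3 comparisons were used without further scaling.

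The order of the spots was recovered as the arrangement, of 32 tried, in which probes of the same transcript agree best. On simulated data 32 of 32 arrangements were recovered, but simulated probes of a transcript differed less than probes do in the data. Of 33709 annotated probes 33653 had 1 gene symbol, and 33517 were matched by gene number to RefSeq on GRCm38.p6, with no symbol changed. The 56 probes with several symbols and 11511 unlisted spots were left out. A gene was the mean of its probes, counted as higher or lower beyond a log2 ratio of 1 or -1.

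The members and lists were chosen with earlier results of these data known. Named are all members with every range of probes, list genes past 2-fold, up to 5 for each list and comparison by size, some signalling and partner genes fixed by name whatever their values, markers set beside a member, and the 3 genes nearest to each member past 2-fold. Cpa3, Bank1, Cd79a and Pax5, and the list genes Gp6, Trim21, Pigr, Fcamr, Fcrl5 and Fcrl6, were named after their values were seen. Listed genes without a probe symbol were not analysed here. Alternatives were another choice of probe, RefSeq mRNA probes, columns centred on their median, thresholds of 1.5-fold and 4-fold, all probes of a gene past 2-fold, and an order chosen on 2949 transcripts. The number of arrays limits the precision. Python 3.11.15, numpy 2.4.6, pandas 2.3.3 and matplotlib 3.10.9 were used.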

Additional observations from a re-analysis of the deposited data

Results flagged for a closer look

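Fcgr4 differed in direction between the lung populations. Relative to PBMo its log2 ratio was -0.79 for lung Mϕ but 0.50 for lung DC, a difference of -1.28 that was not tested, from a single probe and with each ratio within 2-fold. Zap70, a kinase of T cells and NK cells, had -1.10 in Mϕ/PBMo but 1.39 in DC/PBMo, a difference of -2.49 that was not tested either.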

How the results depend on the processing

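The counts of Fc receptor genes past 2-fold, 3 in Mϕ/PBMo, 2 in DC/PBMo and 1 in Mϕ/DC, were the same with the probe of the largest ratios, with RefSeq mRNA probes, after centring, with all probes of a gene required, and with the order chosen on a part of the transcripts. They changed with the threshold. At 1.5-fold they were 5, 3 and 2, and at 4-fold they were 1, 0 and 0. The shares of all genes past these other thresholds were not computed, so these counts have no background beside them. The order chosen on a part of the transcripts was the same order, and another choice of probe cannot change a gene with 1 probe, so these settings say nothing of the stability of such members. The 96 recomputed ratios of members kept their sign, but for the same reasons many of them could not change. Fcgr3 in Mϕ/PBMo is counted among them, although its probes had 0.16 and -0.16. Fcgr1 and Fcer2a, at -1.03 and -1.08 in Mϕ/PBMo, lie close to the threshold. No paired analysis was possible because the deposited values are 1 contrast for each comparison, and no replicate could be left out. Signal over background was not analysed here.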

Other observations

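Of the Fc receptor genes on chromosome 1, Fcgr2b, Fcgr4, Fcgr3 and Fcer1g lie close together, and Fcer1a lies farther along. In the RefSeq order Fcgr2b, Fcgr4 and Fcgr3 follow each other, and in Mϕ/DC they had log2 ratios of -0.30, -1.28 and 0.30. Between Fcgr3 and Fcer1g lie 7 protein-coding genes, of which 6 were measured and none was past 2-fold in any comparison, with a largest absolute log2 ratio of 0.38 in Mϕ/PBMo, 0.30 in DC/PBMo and 0.56 in Mϕ/DC. Fcgr1 lies on chromosome 3, Fcgrt on chromosome 7 and Fcer2a on chromosome 8.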
